A study of Mus musculus and Homo sapiens with 10 samples.

Results

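The genes described here are 10 genes of germ cells and of the piRNA pathway: Dazl, Ddx4, Mael, Asz1, Tdrd1, Mov10l1, Piwil2, Tdrd9, Tdrkh and Pld6. They were chosen by symbol, with earlier results of these data known. All 10 were found among the 25899 genes of the mouse table and, in upper case, among the 35720 genes of the human table. RNA-seq had been performed on E14 mESCs, an established mouse embryonic stem cell line, in 2i medium with LIF. 4 cultures received vitC at 100 µg/ml for 24 h and 4 were left untreated, with each vitC library sharing a culture label with 1 control library. The human libraries, 1 control and 1 vitC at the same dose and time, are labelled as the established hESC line H9 in KSR/FGF medium. The study's methods give that medium for primed H9-NK2 cells, which carry doxycycline-inducible KLF2 and NANOG transgenes, and which of the lines was sequenced could not be settled from the labels. For the mouse cells the labels name no genotype other than the line, and each species is represented by 1 line.

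piRNAs are small RNAs that PIWI proteins carry in germ cells, where they guide the silencing of transposons in the nucleus and in granules near the mitochondria. Most genes of this pathway are silent in other tissues, and many have promoters rich in CpG that are kept off by DNA methylation and by a Polycomb complex that holds E2F6, MGA and MAX. MGA and MAX bind the E-box and E2F6 binds the E2F site, both short DNA motifs. VitC serves as a cofactor of dioxygenases that include the TET enzymes and histone demethylases.

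Promoter windows from RefSeq (GRCm38.p6, the mm10 build), covering 250 bases before and 50 bases after a start site, were found for 9 of the 10 genes, in 12 windows. The E-box, CACGTG on either strand, was present in a window of 6 of the 9 genes, namely Mael, Pld6, Tdrd9, Ddx4, Mov10l1 and Tdrd1. It was present for 8.09% of the 27025 genes with a window, in 7.15% of all 32851 windows and in 11.6% of the 8701 windows with 20 or more CpGs. The E2F motif, TCCCGC or its reverse complement GCGGGA, was present in windows of 2 of the 9 genes, Mael and Ddx4, against 22.1% of all genes with a window. Neither motif contains the other. The windows of Dazl, Asz1 and Tdrkh held neither. The windows of the 9 genes held 3 to 38 CpGs with a median of 22, and that of Dazl held 28, beside a median of 7 over all windows. Mael held a second E2F match, which began 11 bases after the start and is not shown. The following stretches of at most 30 bases, read along the gene's strand, are shown because they hold the motifs, which are in capitals.
Mael, E-box, chr1:166238950-166238979, minus strand: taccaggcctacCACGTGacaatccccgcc
Pld6, E-box, chr11:59787673-59787702, minus strand: ggggcgggctggCACGTGttgggcgcgcaa
Tdrd9, E-box, chr12:111971382-111971411, plus strand: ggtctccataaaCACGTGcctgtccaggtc
Tdrd9, E-box, chr12:111971452-111971481, plus strand: gcacgaggctccCACGTGcatgcagggcct
Ddx4, E-box, chr13:112652322-112652351, minus strand: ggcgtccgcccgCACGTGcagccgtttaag
Mov10l1, E-box, chr15:88982744-88982765, plus strand: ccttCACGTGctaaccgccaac
Tdrd1, E-box, chr19:56826186-56826215, plus strand: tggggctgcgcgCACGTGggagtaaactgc
Mael, E2F, chr1:166238870-166238899, minus strand: gctcctcctcccTCCCGCcccctccgcccc
Ddx4, E2F, chr13:112652429-112652458, minus strand: tccgtccatgggGCGGGAagtcgcgcgccg
The E-box began 33 bases before the start in Pld6 and 223 in Mael. In Ddx4 it began 29 bases before the RefSeq start of the window, which differs from the GENCODE start, and by the GENCODE annotation these bases lie inside the gene. Such a match is a description of letters and says nothing of binding.

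The mESC libraries held 3354852 to 6921305 gene reads and the hESC libraries 15367652 and 17188555, recovered from the deposited variance-stabilised values. All 10 embryonic stem cell markers examined, Pou5f1, Nanog and Sox2 among them, were read in every mESC group and summed to 5484 to 6311 RPM, the reads of a gene per 1000000 gene reads. Replicates 1 and 2 stood apart from replicates 3 and 4: over all genes, libraries of different sets deviated from their group means in opposite directions. Of 14631 tested genes, 39.7% differed between the sets in a limma fit over libraries and 32.8% in a fit over the means of the 2 libraries of each culture, both added after seeing the data. Gene reads per aligned read also differed, with 0.805 to 0.832 in replicates 1 and 2 and 0.711 to 0.742 in replicates 3 and 4. The rRNA share of the repeat counts was 42.0% to 51.5% in the first set and 60.0% to 63.1% in the second. The part of these values in any result was not tested. Results are therefore given without and with the replicate number as a block.

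On the deposited log2-like scale, Dazl showed the largest difference of the 9 tested genes described here and the fourth largest of all tested genes. Dazl, on chr17:50279395-50293636 (GENCODE M21), encodes an RNA-binding protein that germ cells need for the translation of their transcripts. The control libraries held 24.7, 16.2, 6.68 and 6.65 RPM of Dazl in replicates 1 to 4, and the vitC libraries held 98.3, 69.0, 22.7 and 27.0. Each vitC library was above its own control, but the groups overlapped, because the vitC library of replicate 3 was below the control of replicate 1. Within the pairs, the ratio of RPM was 3.99, 4.26, 3.39 and 4.06. The mean was 13.5 ± 8.66 RPM in control and 54.2 ± 36.0 in vitC (SD, n = 4 each).

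The call on Dazl turned on the block. On the deposited log2-like scale the difference was 1.08 (SE 0.32, n = 4 and 4), with an adjusted p of 0.329 in limma without the block. With the replicate block its SE was 0.08 and the adjusted p was 1.44e-08. The differences within the pairs ran from 0.76 to 1.37. That SE and p rest in part on the spread pooled over genes, which is smaller than that between the pairs of Dazl. In edgeR on recovered reads with the block, the log2 fold change of Dazl was 2.01 (SE 0.09, adjusted p = 8.72e-14). The deposited scale compresses low values, so a difference on it is smaller than the log2 fold change of the reads. Dazl with the block rose whichever pair was left out, with adjusted p values between 2.19e-09 and 2.19e-05 in limma.

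**Figure D1:**
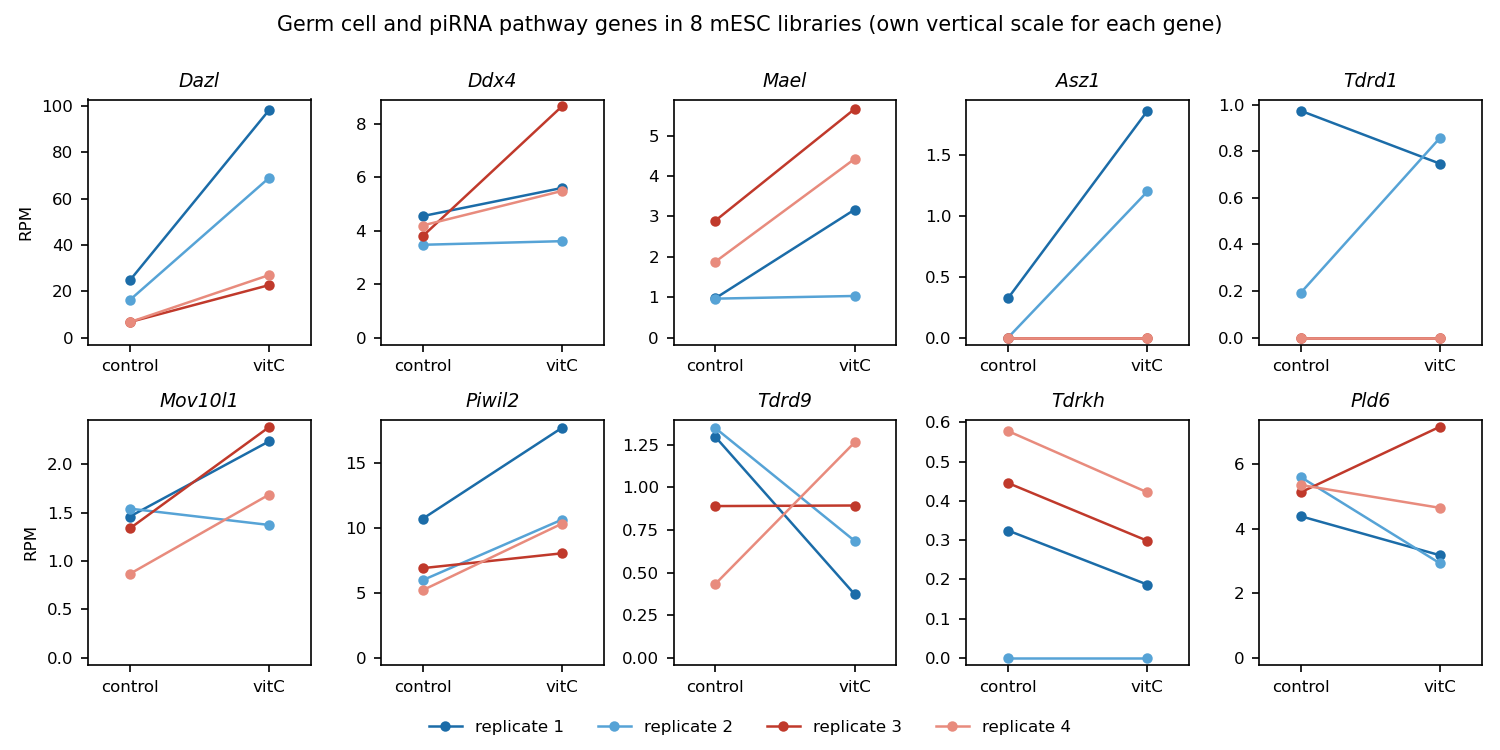
RPM (reads of a gene per 1000000 gene reads) of each of the 10 genes in the control (left) and vitC (right) mESC libraries. Each line joins the 2 libraries of 1 culture pair, blue for replicates 1 and 2 and red for replicates 3 and 4, and the vertical scale differs between genes. Dazl was higher in vitC in 4 of 4 pairs, and Asz1 and Tdrd1 had no reads in replicates 3 and 4.

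Piwil2 and Mael were the other genes that rose with the block. Piwil2, on chr14:70372477-70429383, encodes the PIWI protein MILI, which binds piRNAs in fetal and adult male germ cells. Its control libraries held 10.7, 5.97, 6.90 and 5.20 RPM, and its vitC libraries 17.7, 10.6, 8.05 and 10.3. The vitC library was higher in all 4 pairs, while the groups overlapped through the high control of replicate 1. The difference on the deposited scale was 0.26 (SE 0.11), with an adjusted p of 0.621 in limma without the block and 0.00697 (SE 0.06) with it. In edgeR with the block the log2 fold change of Piwil2 was 0.74 (SE 0.15, adjusted p = 0.00178), which is a ratio of 1.67. Without replicate 1, the blocked limma fit gave an adjusted p of 0.0657 for Piwil2.

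Mael, on chr1:166201201-166238747, encodes an HMG-box protein of germ granules that is required for transposon silencing. Its control libraries held 0.973, 0.964, 2.90 and 1.88 RPM and its vitC libraries 3.17, 1.03, 5.66 and 4.43. The vitC library was higher in all 4 pairs, by little in replicate 2, and the levels of replicates 3 and 4 were above those of replicates 1 and 2 within each condition. Only 37 control and 63 vitC reads stood behind these values. The difference was 0.21 (SE 0.11), with an adjusted p of 0.729 in limma without the block and 0.0451 (SE 0.07) with it. In edgeR with the block the log2 fold change of Mael was 1.12 (SE 0.30, adjusted p = 0.0129). Mael lost its call in limma with the block when replicate 1, 3 or 4 was left out, with adjusted p values of 0.195, 0.117 and 0.169.

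In DESeq2 with the block Dazl alone of the genes described here was called, with an adjusted p of 1.31e-32, against 0.151 for Piwil2 and 0.416 for Mael. Over all genes that fit called 329 higher and 143 lower.

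**Figure D2:**
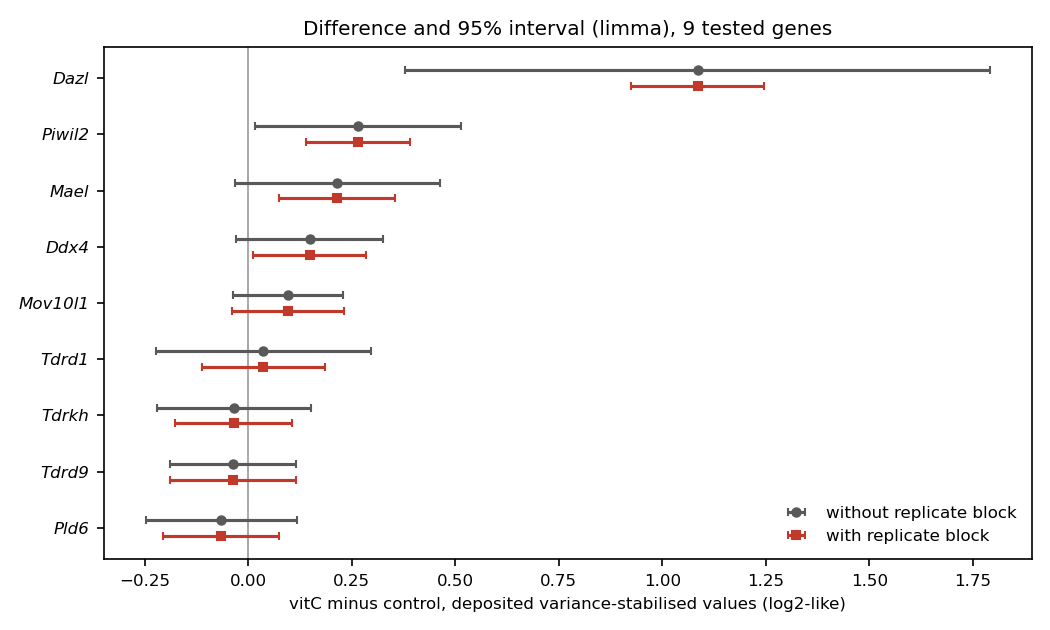
Difference between vitC and control mESCs on the deposited log2-like scale (horizontal axis) for the 9 tested genes (vertical axis), with 95% intervals from limma without (grey circles) and with the replicate block (red squares). The difference of Dazl was 1.08, those of Piwil2 and Mael were 0.26 and 0.21, and the intervals of Mov10l1, Tdrd1, Tdrkh, Tdrd9 and Pld6 include 0 in both fits.

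Counted together, 9 of the 10 genes passed the filter, which required a value above the lowest of the table in at least 4 libraries, and Asz1 did not. Without the block, 0 of the 9 were called in limma, beside 47 of 14631 genes called higher (0.321%). At an unadjusted p under 0.05 in limma there were 2, Dazl and Piwil2, beside 1120 of all 14631 genes in either direction. edgeR and DESeq2 without the block also called 0, beside 35 and 95 genes called higher and 3 and 16 called lower. With the block, 3 of the 9 were called higher and 0 lower in limma, beside 6.36% of all tested genes called higher and 4.44% called lower. edgeR with the block tested 6 of the 10 and called the same 3 genes higher, beside 8.55% of all tested genes. The median difference of the 9 was 0.10, beside -0.002 over all tested genes, and 6 of the 9 were above 0. 4 of the 10 genes, Dazl, Ddx4, Mael and Piwil2, were higher in all 4 pairs, beside 15.4% of tested genes. Because the genes were chosen with earlier results of these data known, these shares are a description.

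Ddx4, on chr13:112598333-112652475, encodes the germ cell RNA helicase related to fly vasa. Its control libraries held 4.54, 3.47, 3.79 and 4.19 RPM and its vitC libraries 5.59, 3.60, 8.64 and 5.48. The highest value was that of replicate 3 in vitC, and the groups overlapped. The difference was 0.15 (SE 0.08), with an adjusted p of 0.744 without and 0.165 with the block in limma, and 0.139 in edgeR with the block. The ratio of RPM of Ddx4 in the pairs ran from 1.04 to 2.28.

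Mov10l1 and Pld6 encode enzymes of piRNA production. Mov10l1, an RNA helicase that binds piRNA precursors, had 1.46, 1.54, 1.34 and 0.867 RPM in control and 2.24, 1.37, 2.38 and 1.69 in vitC. It was higher in 3 of 4 pairs, with a difference of 0.10 (SE 0.06) and an adjusted p of 0.782 without and 0.393 with the block in limma. Pld6, a nuclease of the outer mitochondrial membrane, had 4.38, 5.59, 5.12 and 5.35 in control and 3.17, 2.92, 7.15 and 4.64 in vitC. It was lower in 3 of 4 pairs, with a difference of -0.07 (SE 0.08) and an adjusted p of 0.918 without and 0.595 with the block in limma. In replicates 3 and 4 alone, the difference of Pld6 was 0.05.

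The remaining genes encode Tudor and scaffold proteins of the piRNA granules, and all of them were near the limit of detection. Tdrd9, a Tudor-domain helicase, had 8, 7, 4 and 3 reads in control and 2, 4, 3 and 6 in vitC. It was lower in replicates 1 and 2 and not in replicates 3 and 4, and its difference of -0.04 (SE 0.07) had an adjusted p of 0.954 in limma. Tdrkh, a Tudor protein on mitochondria that serves piRNA trimming, had 2, 0, 2 and 4 reads in control and 1, 0, 1 and 2 in vitC. Its exons share 2255 bases with Oaz3 on the opposite strand, and the strand setting of the counting is not given in the sources used here, so its reads are uncertain. Tdrd1, a Tudor protein that binds PIWI proteins, had 6 and 1 reads in the controls of replicates 1 and 2 and 4 and 5 in their vitC libraries. Asz1, a mitochondrial scaffold protein, had 2 and 0 reads in the same controls and 10 and 7 in the vitC libraries.

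Asz1 and Tdrd1 thus had no read in any library of replicates 3 and 4, where a count of 0 allows up to 3 reads per library. The difference of Tdrd1 was 0.04 (SE 0.12, adjusted p = 0.974 in limma) and that of Tdrkh was -0.04 (SE 0.08, adjusted p = 0.963 in limma). The sign of the difference of Tdrd1, Tdrd9 and Tdrkh turned when single libraries or pairs were left out. No difference was called for Tdrd9, Tdrkh or Tdrd1. Asz1 was not tested in the filtered limma fits or in edgeR. It was not called in limma without the filter or in DESeq2, where its adjusted p ran from 0.149 to 0.997. In bulk libraries, fewer cells that hold a transcript and less RNA per cell cannot be told apart.

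Levels between genes were compared per length, as RPKM, the RPM per kb of exon. In the control mESCs Dazl was highest at 3.55 ± 2.27 (SD, n = 4), followed by Pld6 at 2.91 ± 0.297. In the controls of replicates 3 and 4 the order was the reverse, with Dazl at 1.75 and 1.74 and Pld6 at 2.92 and 3.04. Piwil2 at 1.36 ± 0.462, Ddx4 at 1.33 ± 0.155 and Mael at 0.968 ± 0.530 came next. Mov10l1 at 0.311 ± 0.0721 and Tdrd9 at 0.183 ± 0.0786 followed, and Tdrkh, Tdrd1 and Asz1 were at 0.0549, 0.0535 and 0.0287. The control libraries of Pld6 did not overlap with those of Piwil2, nor those of Mael with those of Mov10l1. All other neighbours in this order overlapped. In vitC Dazl was at 14.2 ± 9.43, and it took 40.6% to 75.6% of the reads of the 10 genes in a library, against 23.8% to 49.7% in control. Without Dazl the other 9 genes summed to 18.49 to 24.98 RPM in control and 22.3 to 35.1 in vitC.

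The response was next compared between the culture sets. On the deposited scale the response of Dazl was 1.34 in replicates 1 and 2 and 0.83 in replicates 3 and 4. The difference of the responses was -0.50 (SE 0.16), with an adjusted p of 1.00 in limma without the block and 0.0590 with it. On the scale of reads the ratio of Dazl was 4.10 in replicates 1 and 2 and 3.72 in replicates 3 and 4. In edgeR the difference of the log2 fold changes was -0.11 (SE 0.33, adjusted p = 1.00).

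A difference in response between the sets was called for 0 of the 9 genes in limma without the block, beside 0% of all 14631 genes. With the block it was also called for 0 of the 9, beside 13 of all 14631 genes (0.0889%). At an unadjusted p under 0.05 there was 1, Dazl, in limma without and with the block, beside 601 and 1074 of all 14631 genes. In edgeR there were 0, beside 426 of 12337 genes. The levels themselves differed. Over control and vitC together, Dazl and Tdrd1 were lower in replicates 3 and 4 than in replicates 1 and 2, with differences of -0.93 (SE 0.09, adjusted p = 1.19e-05) and -0.31 (SE 0.07, adjusted p = 0.00465) in limma over culture means. Mael was higher there by 0.26 (SE 0.07, adjusted p = 0.0161 in limma). With 2 cultures a set, these values rest on the spread that limma pools over genes. These 3 of 9 genes stand beside the 32.8% of all genes called in the same fit.

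**Figure D3:**
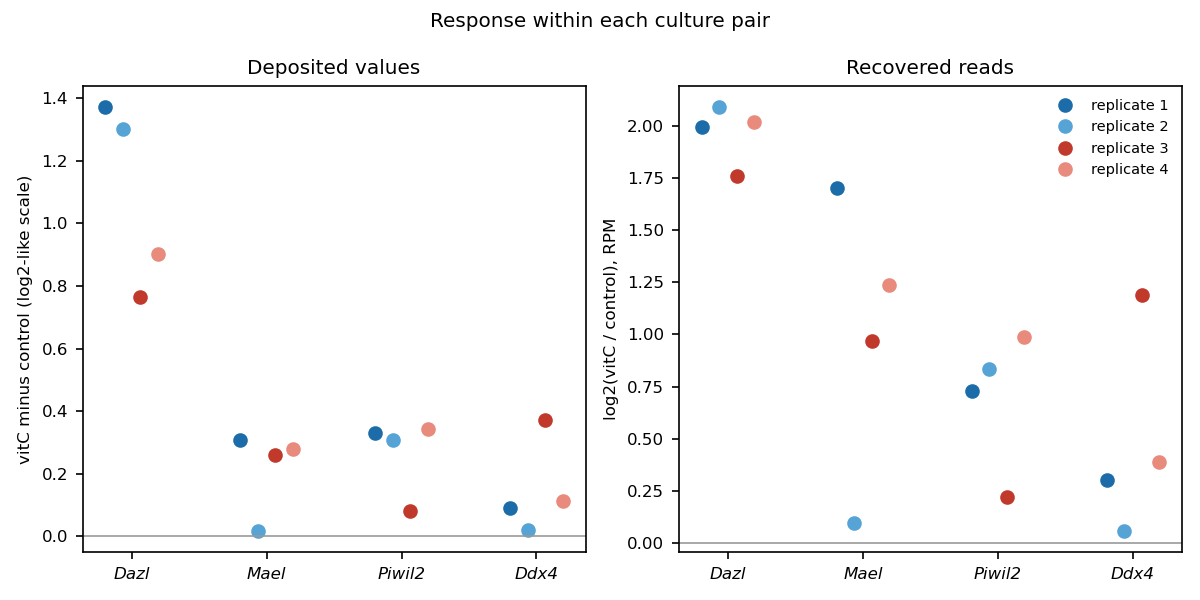
Response to vitC within each culture pair for Dazl, Mael, Piwil2 and Ddx4, as the difference of the deposited log2-like values (left) and as the log2 ratio of RPM (right). Points are pairs, coloured by replicate. The 4 pairs of Dazl ran from 0.76 to 1.37 on the left and from 1.76 to 2.09 on the right.

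Other genes of the pathway were examined as a list of 22, of which 21 were in the table and 17 were tested. This list and those below were also chosen with earlier results of these data known, so their shares called are a description. Without the block 1 of the 17 was called in limma, Gtsf1, which encodes a cofactor of PIWI proteins. Gtsf1 went from 0.746 ± 0.480 RPM in control to 3.64 ± 0.596 in vitC (SD, n = 4), with a difference of 0.41 (SE 0.07, adjusted p = 0.0401 in limma). That call was lost in 7 of 8 fits that left out 1 library, where the adjusted p in limma ran from 0.0339 to 0.142, and in replicates 3 and 4 alone. With the block 7 of the 17 rose and 0 fell, beside 6.36% of all tested genes higher and 4.44% lower, and the median difference of the 17 was -0.01. In edgeR with the block the log2 fold change was 2.24 for Gtsf1, 1.69 for the PIWI gene Piwil1, 1.12 for the Tudor gene Stk31, 0.70 for Gpat2, 0.64 for the co-chaperone gene Fkbp6 and 0.40 for the Tudor gene Rnf17. Their blocked limma adjusted p values ran from 1.19e-05 for Stk31 to 0.0268 for Piwil1. Prmt5 and Wdr77, which form the arginine methyltransferase that modifies PIWI proteins, had differences of -0.06 each.

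Of 24 other germ cell genes, 17 were tested and 0 were called in limma without the block. With the block 8 of the 17 rose and 0 fell, beside the same 6.36% and 4.44% of all tested genes, and the median difference was 0.06. Those named by the rule were Tfap2c, a factor of germ cell specification, Tex19.1 and Tex19.2, the carrier gene Slc25a31, the TFIID gene Taf7l and the transcription factor gene Sohlh2. Their log2 fold changes in edgeR with the block were 0.36, 0.38, 1.56, 1.45, 1.32 and 0.51. Nanos2, Sohlh1, Figla, Nobox and Gdf9 had no read in any mESC library.

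Markers of other cells were read beside these genes. Of 12 markers of spermatids and gonad support cells, 8 had no read in any mESC library, the protamine and transition protein genes Prm1, Prm2, Tnp1 and Tnp2 among them. The sum of the 12 was 6.33 to 9.83 RPM in control and 5.49 to 8.05 in vitC, and 0 of 3 tested were called with the block in limma. Of 6 fibroblast and feeder markers, 0 of 4 tested were called with the block in limma and 1 of 3 in edgeR, and their sum was 6.55 to 17.3 in control and 11.5 to 16.2 in vitC. The reads in control and vitC were 51 and 96 for Col1a2, the one called in edgeR, 3 and 14 for Col1a1, 0 and 2 for Col3a1, 0 and 14 for Lum, 183 and 109 for Thy1 and 27 and 24 for Pdgfrb. Of the 10 embryonic stem cell markers, 0 were called without the block in limma, while 6 fell and 1 rose with it, beside 4.44% of all tested genes lower and 6.36% higher, with a median difference of -0.12. Nanog fell by 0.25, Tdgf1 by 0.40, Dppa5a by 0.25, Klf2 by 0.13, Zfp42 by 0.13 and Pou5f1 by 0.12, whereas Tfcp2l1 rose by 0.11. The part of these shifts in the values of Dazl, Piwil2 and Mael was not tested.

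The repressors of germ line genes and the enzymes that write or erase their marks were read as a list of 23, all tested. E2f6, Mga and Max, the proteins of the motifs shown above, had differences of -0.10, -0.11 and 0.07 and adjusted p values of 0.183, 0.0974 and 0.300 in limma with the block. In that fit 3 of the 23 rose and 2 fell, beside 6.36% of all tested genes higher and 4.44% lower, and 0 were called without the block. The H3K9 methyltransferase genes Setdb1 and Ehmt1 rose by 0.23 and 0.14 and the demethylase gene Kdm3b by 0.21. Cbx3, which encodes an HP1 protein, fell by 0.18 and Tet2 fell by 0.26. Tet1 had a difference of -0.11 and an adjusted p of 0.0818, and Dnmt1 one of 0.10 and an adjusted p of 0.0771, in limma with the block.

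**Figure D4:**
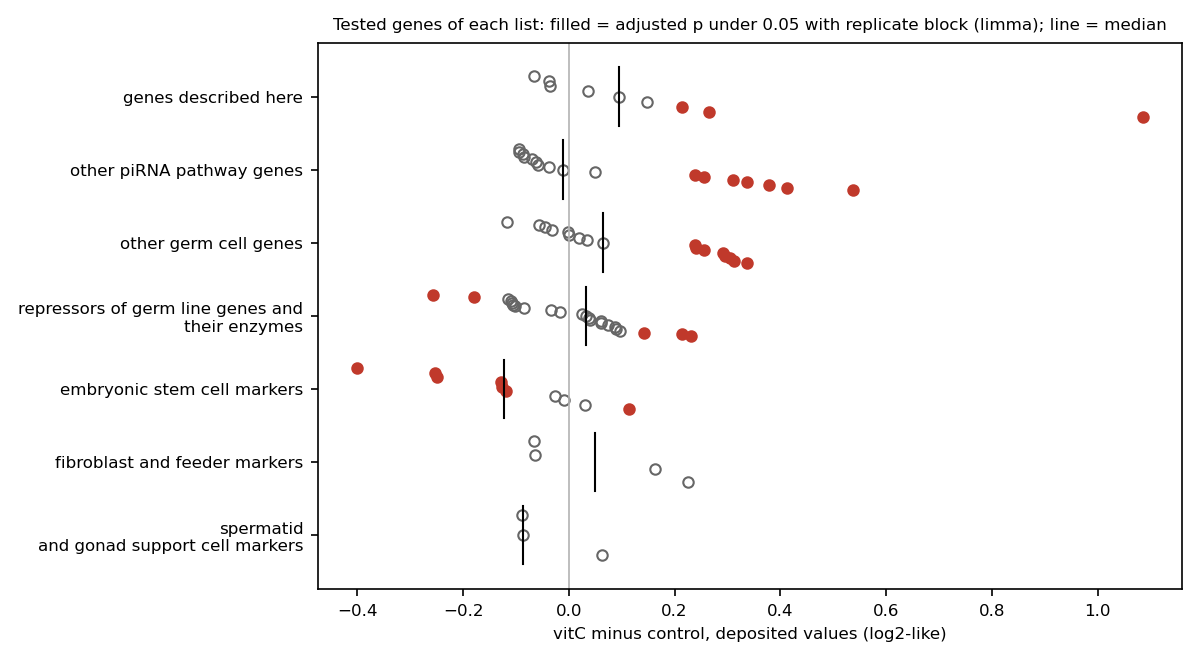
Difference between vitC and control mESCs on the deposited log2-like scale (horizontal axis) for each tested gene of 7 lists. Filled red points passed an adjusted p of 0.05 in limma with the replicate block, open points did not, and black lines are medians. Dazl is the point at 1.08, and the filled points of the other piRNA pathway and other germ cell lists lie between 0.24 and 0.54.

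Among the genes whose deposited values followed those of Dazl most closely over the 8 mESC libraries were Tpbg (Pearson r = 0.998), Slc30a1 (0.991), Oxr1 (0.988) and BC026585 (0.985). These libraries share the culture sets and the treatment, so the correlations are a description. Their differences were 0.31, 0.30, 0.12 and 0.14, all smaller than that of Dazl. None of these 4 was called without the block in limma, and Tpbg and Slc30a1 were called with it.

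In hESCs there was 1 library per condition, so no difference was tested. The intervals cover counting error only and take each read as independent. The hESC libraries held 1.77 (control) and 1.81 (vitC) gene reads per aligned read. A fragment may thus have been counted more than once, which would make the intervals too narrow. TDRKH, near the bottom in mESCs, was the highest of the 10 genes with 318 reads in control and 343 in vitC. Its level per length was 4.06 in control and 3.92 in vitC, and its log2 ratio of shares was -0.05 (95% exact Clopper-Pearson interval -0.28 to 0.17). TDRKH shares 607 exon bases with TDRKH-AS1 and 86 with OAZ3 on the opposite strand.

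DAZL had 36 and 42 reads, with a log2 ratio of 0.06 (-0.62 to 0.74). MAEL had 8 reads in control and 24 in vitC, with a log2 ratio of 1.42 (0.22 to 2.79). The deposited values of MAEL differed by 0.06 on the human scale, whose lowest value, that of 0 reads, is 10.8. PLD6 had 5 and 1 reads, with a log2 ratio of -2.48 (-8.05 to 0.68). PLD6 shares 450 exon bases with another protein-coding gene on the same strand and 176 with MPRIP on the opposite strand, so its reads are uncertain.

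The other human genes were at or below 1 read. MOV10L1 had 1 read in each library, PIWIL2 had 1 in vitC only and TDRD9 had 1 in control only. DDX4, ASZ1 and TDRD1 had none, which allows up to 0.195 RPM in control and 0.175 in vitC. In mESC controls the lowest Ddx4 value was 3.47 RPM. The species differ in line, medium, annotation and depth, and the difference between them was not tested.

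**Figure D5:**
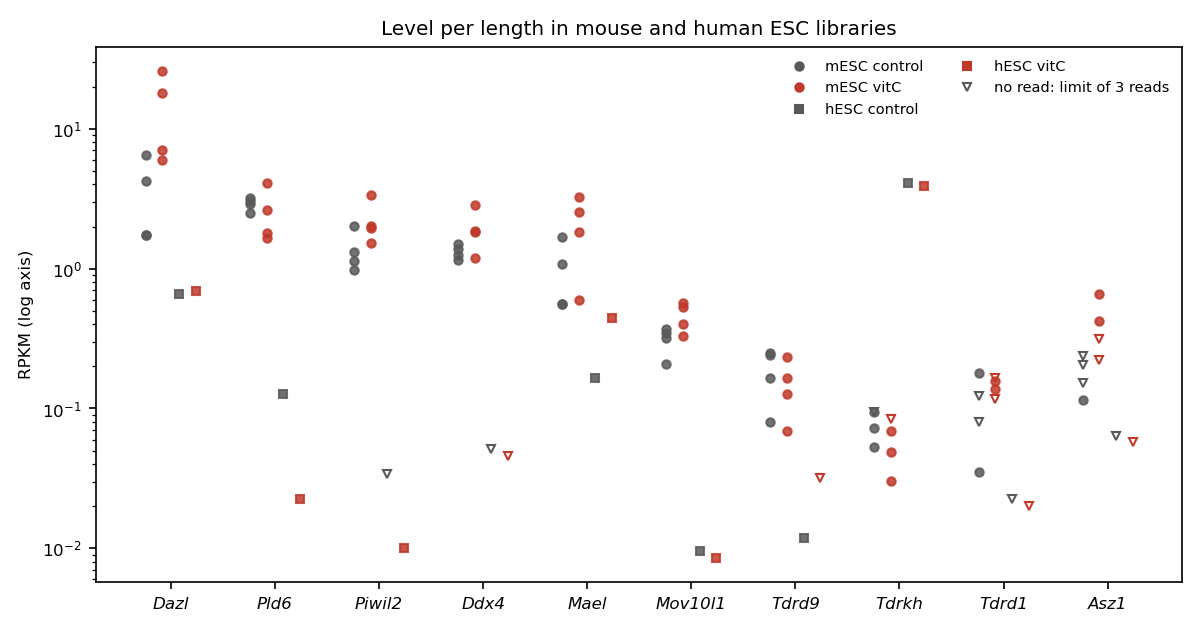
Level of each of the 10 genes as RPKM (log axis) in every mESC library (circles) and hESC library (squares), control in grey and vitC in red. Open triangles are libraries with no read, drawn at the limit of 3 reads. TDRKH was at 4.06 in the hESC control against a mean of 0.0549 in mESC controls.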

How the data were processed

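RNA-seq of 8 mESC and 2 hESC libraries was analysed. The authors trimmed reads with Trim Galore, mapped them to mm10 or hg38 (HISAT2 is named in the submitters' notes) and counted with SQuIRE, in versions not given in the sources used here. The labels name an rRNA depletion kit or an mRNA isolation kit without saying which library had which. The paper's methods name only an rRNA depletion kit for RNA-seq. The repeat counts of both hESC libraries held 0 rRNA counts, and the reason was not tested. The gene tables deposited by the authors hold variance-stabilised expression, a log2-like quantity whose lowest value stands for 0 reads. For repeat subfamilies the authors deposited expected counts, of which the library totals, the rRNA share and the aligned library sizes were read here. Inverting the transformation gave whole reads (within 0.001 read) for 100% of the values above the lowest.

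The deposited values were tested with limma 3.58.1 (lmFit, eBayes with trend) in R 4.3.3, over genes with reads in at least 4 libraries, with Benjamini-Hochberg adjustment over all tested genes and a threshold of 0.05. The paper tested counts with DESeq2 and names no replicate term, so the main fit had none. Recovered reads were tested with edgeR 4.0.16 (TMM, filterByExpr, quasi-likelihood) and DESeq2 1.42.0 as alternatives. The SE given for edgeR was derived as the absolute log2 fold change divided by the square root of the quasi-likelihood F. Only the limma and edgeR fits without the block were tried on simulated data with known changes. Those data held no difference between replicates or culture sets. The fits with the block, DESeq2 and the comparisons of the culture sets were not tried in this way. A shared replicate number goes with a shared culture label, and the pairing rests on these labels. Control and vitC libraries of 1 number departed from their groups together, with correlations over genes of 0.626 to 0.765. Different numbers within a culture set gave 0.574 to 0.665, which overlaps that range, and numbers across the sets gave -0.709 to -0.546. All 8 mESC libraries correlated best with their own number, but the correlations separate the sets far more than the numbers. No label says whether the 4 cultures were independent derivations, so p-values refer to these cultures only. In limma they rest in part on the spread pooled over genes, which can be smaller than that between a gene's own pairs.

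The 10 genes and the other gene lists were chosen with earlier results of these data known. From each other list, genes past the threshold in limma without or with the block were named, at most 6 by smallest adjusted p without the block. The 5 tested genes with the highest Pearson r with Dazl were also taken, of which 1 is not reported here. Genes outside this rule (Prmt5, Wdr77, Pou5f1, E2f6, Mga, Max, Tet1, Dnmt1, the fibroblast markers and genes without reads) were chosen after their values were seen. 3 list genes were matched by an older symbol through RefSeq and 1, Dnmt3c, was not found. Exon lengths and positions are from GENCODE M21 and v44. The repeat tables hold 7 more columns with a value for each library, which were left unused. The reads carry no molecular identifiers and can be copies of 1 molecule, so intervals and limits cover counting error only.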

Additional observations from a re-analysis of the deposited data

Results flagged for a closer look

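For Asz1 in the mESC controls, the library of replicate 1 stood apart from the other 3, with a deposited value of 6.35 against the lowest value of the table, 6.13, in each of the others. This rests on 2 reads. Of 20 groups of 4 values examined for the 10 genes this was the only one. Chance flags about 1 in 20 such groups, but that rate does not apply here, because with the other 3 libraries tied at the lowest value any read in the fourth sets it apart.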

How the results depend on the processing

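Without the block, 47 genes were higher and 3 lower in vitC mESCs in limma, and 0 of the 10 genes described were called. With the replicate block, for which the pairing is given by the culture labels, limma called 931 higher and 650 lower and 3 of the 10 genes, edgeR 1055, 777 and 3, and DESeq2 329, 143 and 1. Without the block DESeq2 called 95 higher and 16 lower. Replicates 1 and 2 alone gave 147, 28 and 1, and replicates 3 and 4 alone 4 and 0. A value above the lowest in all 8 libraries gave 27 and 1, and quantile normalization 5 lower. Alternatives chosen after seeing the data were the replicate set as a term, with 577, 350 and 2, and no filter with the block, with 879, 581 and 3. For the other piRNA pathway genes the count of 1 became 7 in limma and edgeR with the block, with the set term and with no filter and block, 6 in DESeq2 with the block, 2 in DESeq2 without it and in replicates 1 and 2, and 0 in edgeR without it and in replicates 3 and 4. For the other germ cell genes the count of 0 became 8 in limma, edgeR and no filter with the block, 7 with the set term and 5 in DESeq2 with the block, and for the repressors 5, 5, 5, 3 and 3. Leaving out each library gave 19 to 31 higher, 0 to 1 lower, 0 of the 10 genes and 0 to 1 piRNA pathway genes. Leaving out pairs 1 to 4 with the block gave 557, 631, 759 and 617 higher, 313, 437, 531 and 342 lower, 1 to 3 of the 10 genes, 6 to 7 piRNA pathway, 5 to 8 germ cell and 3 to 5 repressor genes. The sign turned for Tdrd1 (-0.026 to 0.118 with each library left out, -0.016 without pair 2), Tdrd9 (0.092 in replicates 3 and 4, 0.019 without pair 1), Tdrkh (-0.10 to 0.017 with each library left out) and Pld6 (0.049 in replicates 3 and 4). The cause was not tested. The number of reads limits the precision for the genes described, and Asz1, Tdrd1 and Tdrkh had the fewest.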
